A study of Mus musculus with 6 samples.

Results

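Many of the genes linked to autism risk do not act at the synapse or in ion channels but elsewhere in the neuron, and 38 of them were followed here in mouse primary cortical cultures exposed to 10HDA. The 38 genes were taken as a written list and sorted by role into 23 genes of chromatin and transcription, 9 of signalling and adhesion, and 6 of protein and RNA turnover. All 38 were among the 43346 genes of the count table, and 36 reached 10 CPM (counts per library total, scaled to be comparable) in 3 or more libraries and were tested. The cultures came from fetal cortex at gestational day 15.5, from embryos that the labels give as Cyp19-EGFP and SRY+ in every library, while the methods give C57BL/6 for these cultures. Cultures numbered 1, 3 and 4 each gave 1 library after vehicle (DMSO, 0 mM 10HDA) and 1 after 10HDA at 1 mM, a royal jelly fatty acid, so that each group held 3 libraries. The question was whether 10HDA shifted the RNA of these genes against vehicle, and whether the chromatin and transcription genes differed in this from the signalling and adhesion genes.

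As background, the chromatin and transcription genes of this list encode remodelling enzymes that slide or exchange nucleosomes, enzymes that write or read methyl marks on histones, and transcription factors that set neuronal identity. The signalling and adhesion genes encode secreted and surface proteins that guide neurons to their layer and join axons to their partners, and the inhibitors of the Ras and mTOR growth pathways. Most of the turnover genes mark proteins for degradation or hold back the translation of messenger RNA. Naa15, also placed among them, encodes the partner subunit of an acetyltransferase.

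The libraries held from 9144736 to 13367194 counts on genes, and 3 counts correspond to 0.22 to 0.33 CPM, a limit that covers counting error only. All 6 libraries held counts that go against a male label, and culture 1 stood furthest from it. Counts of Uty, Kdm5d, Eif2s3y and Ddx3y, all Y-linked, summed to 8.87 CPM with vehicle and 9.10 CPM with 10HDA in culture 1, and to 95.7 to 133 CPM in cultures 3 and 4. The RNA of the inactive X chromosome, Xist, was counted at 1010 and 1413 CPM in culture 1 but also at 394 to 825 CPM in the libraries of cultures 3 and 4. Values without culture 1 are given beside the genes described in full and, for the roles, partner lists and markers, in a paragraph of their own. The 12 neuron markers were all present, with sums of 9292 to 9819 CPM with vehicle and 7761 to 8756 CPM with 10HDA, and 11 of the 12 lay lower with 10HDA. The 8 microglia markers were near 0 in every library, with sums of 4.74 to 8.58 CPM and no count of Tmem119.

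Of the 36 tested genes, 1 passed the threshold of an adjusted p of 0.1 (edgeR's quasi-likelihood test, Benjamini-Hochberg adjustment over 10520 genes), namely Reln, which fell. Across all genes tested 0.627% passed in either direction and 0.428% as lower. With the culture number as a block, which compares the 2 libraries of the same culture, 3 of the 36 passed, all lower: Reln, Ank2 and Myt1l. The background under the block was 8.98% in either direction and 5.08% as lower, so 3 of 36 was near the background share. The fitted log2 difference (10HDA minus vehicle) was nevertheless below 0 for 33 of the 36, or 91.7%, against 52.2% of all genes tested. The difference was small, with a median log2 difference of -0.088 for the 36 genes and -0.0095 for all genes.

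**Figure D1:**
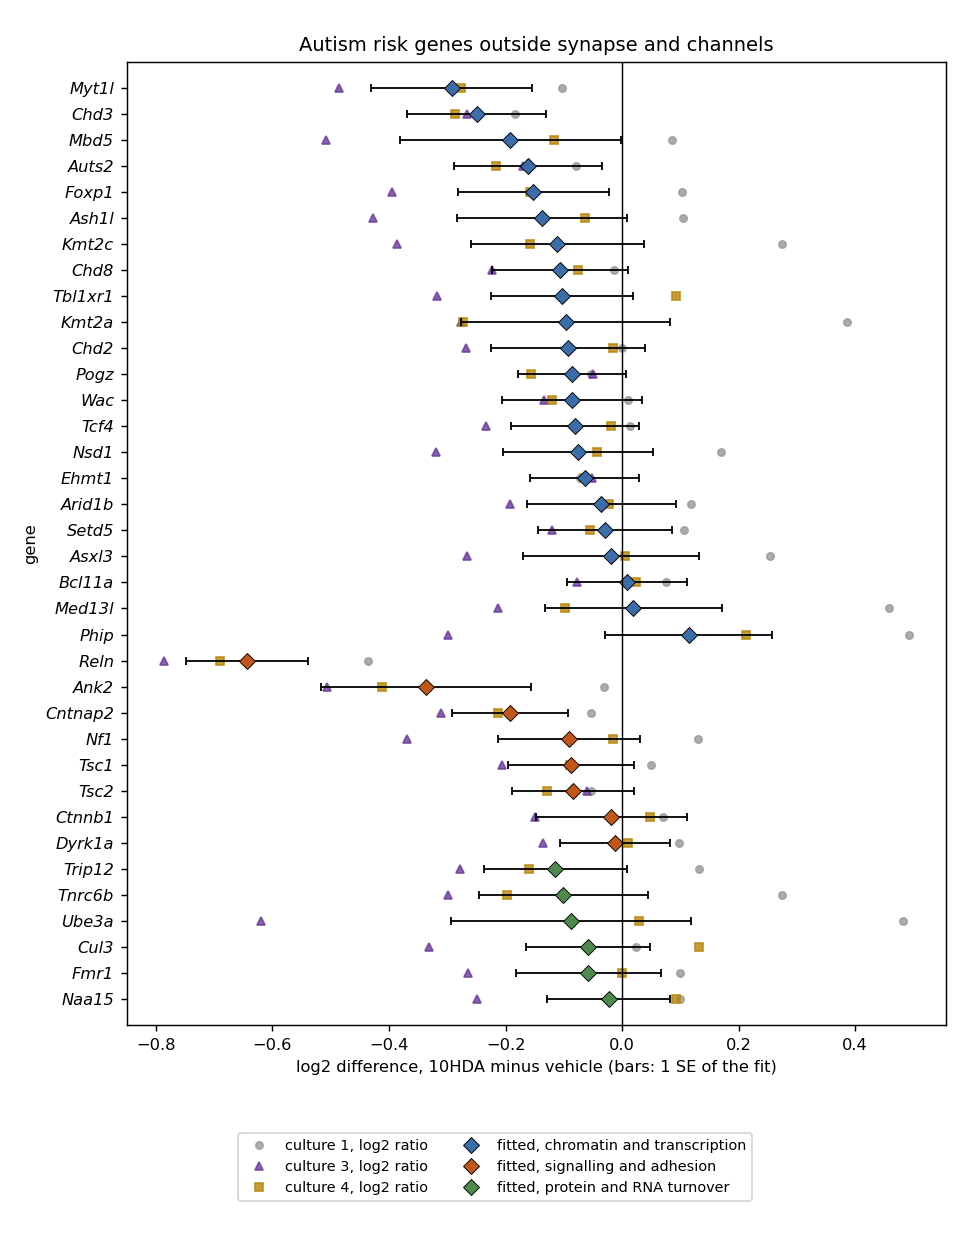
Fitted log2 difference (10HDA minus vehicle) of the 36 tested genes, by role; bars are 1 SE of the edgeR fit and small symbols the log2 ratio within each culture. 33 of the 36 diamonds lie below 0, Reln lies farthest at -0.64, and the culture 3 triangles lie below 0 for all 36 genes while most culture 1 circles lie above it.

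Reln encodes reelin, a large secreted protein that guides the layering of cortical neurons and that Cajal-Retzius cells and a class of interneurons release. In the vehicle libraries of cultures 1, 3 and 4 it was counted at 123, 154 and 142 CPM, and in the 10HDA libraries at 90.6, 89.0 and 87.8 CPM. Every 10HDA value lay below every vehicle value, and the 10HDA libraries were close to each other. The log2 difference was -0.64 (SE 0.10, adjusted p = 0.0428 by edgeR), and -0.64 with the block (adjusted p = 0.00014 by edgeR). Within cultures 1, 3 and 4 the log2 ratios were -0.44, -0.79 and -0.69.

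Without both libraries of culture 1 the log2 difference of Reln was -0.72, with an adjusted p of 0.16 in edgeR's fit without the block and of 1.73e-07 with it. Reln lost its call without the block when vehicle culture 3 (adjusted p = 0.159 by edgeR), vehicle culture 4 (adjusted p = 0.187 by edgeR), 10HDA culture 1 (adjusted p = 0.305 by edgeR) or 10HDA culture 3 (adjusted p = 0.123 by edgeR) was left out. In those 4 fits 0 to 27 of all genes passed, with 453 at an unadjusted p under 0.05 in the fit with 0, and the log2 difference of Reln stayed between -0.57 and -0.65.

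Reln lies on the reverse strand of chromosome 5 (chr5:21884454-22344702, GRCm38), and 1.0% of its exon bases are shared with another gene of the table. The 250 bases before its start (chr5:22344706-22344955, reverse strand, RefSeq on GRCm38.p6) are shown because Reln was the gene that passed both fits, with each CpG in capitals.
Reln promoter: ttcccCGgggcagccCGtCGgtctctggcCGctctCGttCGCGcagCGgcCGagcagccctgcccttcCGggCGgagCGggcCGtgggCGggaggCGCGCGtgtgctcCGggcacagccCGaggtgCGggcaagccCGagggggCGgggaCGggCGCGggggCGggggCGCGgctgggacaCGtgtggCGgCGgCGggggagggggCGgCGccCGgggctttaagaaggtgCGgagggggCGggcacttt
This stretch holds 37 CpG and 80.0% G and C, against a median of 6 CpG over 32851 promoters of the same length, of which 2.2% held as many. Over the 30 genes of the autism list with a promoter in that table, each taken at its promoter with the most CpG, the median was 22.5 CpG. Many CpG were thus common in the list, though the median of 6 counts every promoter singly and the 2 medians are not alike. No DNA methylation or binding was measured, and the sequence is given as a description.

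RNA from whole cultures cannot separate fewer cells of a type from less RNA per cell, so the markers of the cells that make reelin were read beside it. Of 8 Cajal-Retzius markers, 2 passed the filter on low counts and the list summed to 80.5 to 95.3 CPM with vehicle and 68.0 to 79.4 CPM with 10HDA. Lhx1 and Lhx5, both transcription factors of these cells, were the only markers of the list that averaged under 1 CPM over all libraries. Calb2, the calcium-binding protein calretinin, had a log2 difference of -0.62 (adjusted p = 0.335 by edgeR) and -0.60 with the block (adjusted p = 0.0032 by edgeR). The other tested marker of this list, the calcium channel subunit Cacna2d2, had a log2 difference of 0.013 (adjusted p = 0.977 by edgeR). The 9 interneuron markers summed to 509 to 642 CPM with vehicle and 429 to 581 CPM with 10HDA. Lower differences were found in 8 of these 9 markers, of which 4 passed under the block, while Gad1, the enzyme that makes GABA, had a log2 difference of 0.036. In cultures 1, 3 and 4, 9, 4 and 7 of the interneuron markers lay lower, with median log2 ratios of -0.365, 0.021 and -0.33. In the same cultures the log2 ratios of Reln were -0.44, -0.79 and -0.69. Without culture 1, 7 of the 9 interneuron markers lay lower and 1 passed under the block. The part of these cells in the fall of Reln was not tested.

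The rest of the reelin and contactin pathway list did not share one direction. Of its 17 tested genes, 12 lay lower and 5 higher, none passed without the block (3 had an unadjusted p under 0.05 in edgeR), and the median log2 difference was -0.16. Among the receptors of reelin, Lrp8 had a log2 difference of -0.17 (adjusted p = 0.645 by edgeR) and Vldlr one of 0.23 (adjusted p = 0.50 by edgeR). Dab1, the adaptor of these receptors, was level at -0.023. Under the block 4 genes of the list passed as lower, namely Cntn5, Cntnap4, Cntnap5a and Ptprz1, and Cntn5, a contactin of axons, had a log2 difference of -0.64 (adjusted p = 0.0043 by edgeR).

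Ank2 encodes ankyrin-B, which anchors membrane proteins to the cytoskeleton of the axon (chr3:126921612-127499350, GRCm38). It was counted at 871, 1176 and 1463 CPM with vehicle and at 853, 828 and 1100 CPM with 10HDA, in cultures 1, 3 and 4. Its groups overlapped, because vehicle culture 1 lay below 10HDA culture 4. The log2 difference was -0.34 (SE 0.18, adjusted p = 0.541 by edgeR), and -0.32 with the block (SE 0.10, adjusted p = 0.066 by edgeR). Within cultures 1, 3 and 4 the log2 ratios were -0.031, -0.51 and -0.41, so that culture 1 was nearly level. With the block, Ank2 passed without culture 1 (adjusted p = 0.00124 by edgeR) but neither without culture 3 (adjusted p = 0.30 by edgeR) nor without culture 4 (adjusted p = 0.471 by edgeR).

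Myt1l encodes a zinc finger factor that holds non-neuronal genes silent in neurons (chr12:29528384-29923213, GRCm38). Its vehicle values in cultures 1, 3 and 4 were 274, 332 and 377 CPM and its 10HDA values 255, 237 and 311 CPM. The 10HDA library of each culture lay below its vehicle library, but 10HDA culture 4 lay above vehicle culture 1. The log2 difference was -0.29 (SE 0.14, adjusted p = 0.505 by edgeR), and -0.29 with the block (adjusted p = 0.076 by edgeR). The block called Myt1l without culture 1 (adjusted p = 0.0203 by edgeR) and missed it without culture 3 (adjusted p = 0.329 by edgeR) or culture 4 (adjusted p = 0.407 by edgeR).

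**Figure D2:**
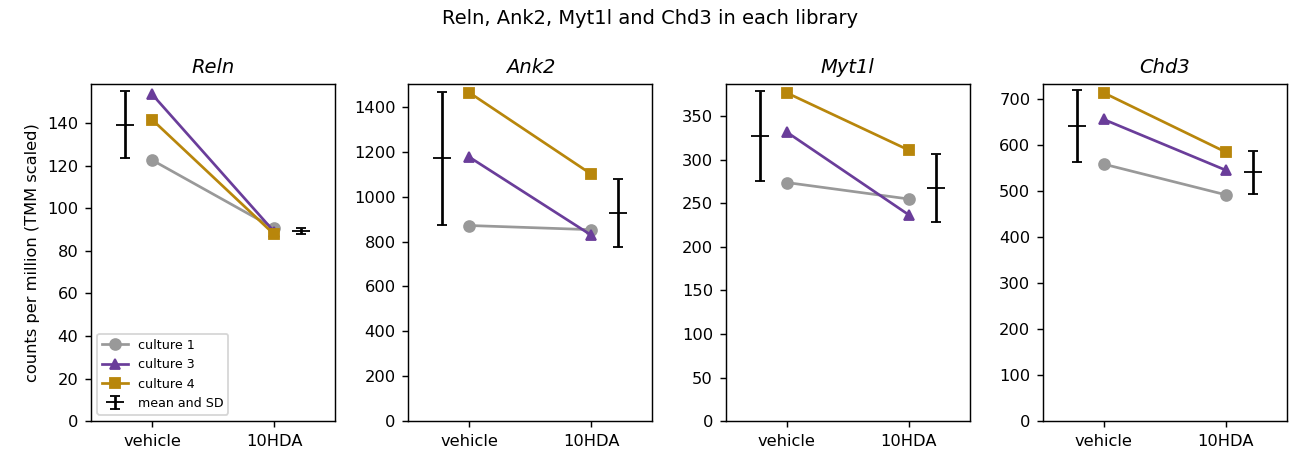
CPM after TMM scaling in each library for Reln, Ank2, Myt1l and Chd3, with lines joining the vehicle and 10HDA libraries of a culture and black bars giving mean and SD of 3 libraries. The groups are apart for Reln, at 123 to 154 against 87.8 to 90.6 CPM, and overlap for Ank2, Myt1l and Chd3.

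The 22 tested genes of chromatin and transcription had a median log2 difference of -0.090, with 19 lower and 3 higher. Chd3, a helicase of the nucleosome remodelling and deacetylase complex, came next after Myt1l. It measured 559, 656 and 714 CPM with vehicle and 492, 546 and 585 CPM with 10HDA, with a log2 difference of -0.25 (adjusted p = 0.511 by edgeR, 0.124 with the block). Its relatives Chd8 and Chd2 had log2 differences of -0.11 and -0.093. Exons of Chd2 share 18.4% of their bases in GENCODE M21 with 1810026B05Rik on the same strand, which had 424 counts over all libraries. The strand of a read cannot tell these 2 genes apart there.

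Among the histone methylation genes the differences were small beside their error. Kmt2a, Kmt2c and Ash1l, which methylate histone H3 at active genes, had log2 differences of -0.097 (SE 0.18), -0.11 (SE 0.15) and -0.14 (SE 0.15). For Setd5, Nsd1 and Ehmt1, further proteins with the methyltransferase domain, they were -0.030, -0.076 and -0.064. Arid1b, a subunit of the BAF remodelling complex, was at -0.036, and Pogz, a zinc finger protein that binds heterochromatin protein, at -0.087. Mbd5 and Asxl3, which belong to the Polycomb deubiquitinase machinery, were at -0.19 and -0.019.

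The transcription factors and cofactors covered a similar range. Foxp1 and Tcf4, factors of cortical neurons, had log2 differences of -0.15 and -0.081, Auts2 one of -0.16, Tbl1xr1, a corepressor subunit, one of -0.10, and Wac one of -0.086. The 3 genes above 0 were Phip, at 0.11 (SE 0.14), Med13l, a Mediator subunit, at 0.019 (SE 0.15), and Bcl11a, a zinc finger factor of projection neurons, at 0.0081 (SE 0.10). Of these, Phip lay higher in cultures 1 and 4 and lower in culture 3, with log2 ratios of 0.49, 0.21 and -0.30. It passed as higher under the block only in the fit without culture 3 (0.35, adjusted p = 0.0234 by edgeR), and its direction turned without culture 1 (-0.029 under the block).

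The signalling and adhesion genes had 8 of 9 tested, all 8 lower, with a median log2 difference of -0.090, the same to 2 decimals as the chromatin and transcription genes. Besides Reln and Ank2, Cntnap2 stood out among them, an adhesion protein of axons that clusters potassium channels. It measured 65.3, 69.2 and 70.8 CPM with vehicle and 62.9, 55.8 and 61.1 CPM with 10HDA. Its groups did not overlap, but the log2 difference was -0.19 (SE 0.099) and did not pass (adjusted p = 0.53 by edgeR, 0.294 with the block). Reln and Cntnap2 were 2 of the 36 genes with no overlap and lower values in 10HDA, or 5.56%, against 7.44% of all genes tested.

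The growth pathway inhibitors differed little between treatments. Tsc1 and Tsc2, which together hold mTOR in check, had log2 differences of -0.088 (95% interval -0.33 to 0.15) and -0.084 (95% interval -0.32 to 0.15), and Nf1, which turns off Ras, had -0.091 (95% interval -0.36 to 0.18). Dyrk1a, a kinase, and Ctnnb1, the beta-catenin of cell junctions and Wnt signalling, were at -0.012 and -0.018. In GENCODE M21, 14.6% of the exon bases of Ctnnb1 are shared with Ulk4 and 7.2% of those of Tsc2 with Pkd1, both antisense, and without the strand setting of the counting their reads cannot be told apart there. Of the 24 genes in the list of TSC, mTOR and Ras partners, 12 lay higher and 12 lower, and 1 passed. That gene was Eif4ebp1, the translation repressor that mTOR phosphorylates, which rose from 17.4 ± 2.06 to 28.7 ± 3.54 CPM (SD, n = 3), a log2 difference of 0.72 (adjusted p = 0.0789 by edgeR). Rheb, the small GTPase that Tsc1 and Tsc2 inhibit, passed as higher under the block at 0.29 (adjusted p = 0.0729 by edgeR), and had an adjusted p of 0.403 without it.

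The 6 turnover genes were all lower in the fit, with a median log2 difference of -0.073, and none passed in either fit (edgeR, with 0 of the 6 at an unadjusted p under 0.05 without the block). The ubiquitin ligase genes Cul3, Ube3a and Trip12 had log2 differences of -0.058, -0.088 and -0.11. Those of Naa15, the partner subunit of an acetyltransferase, Fmr1, the RNA-binding protein FMRP, and Tnrc6b, which silences messages bound by microRNA, were -0.023, -0.058 and -0.10. Ube3a varied most between cultures, with log2 ratios of 0.48, -0.62 and 0.028 in cultures 1, 3 and 4. In GENCODE M21, 8.7% of its exon bases are shared with the antisense transcript Snhg14, and the strand setting of the counting is not given in the sources used here.

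The 95% intervals state what the 6 libraries could resolve. Outside Reln, the lowest limit of any tested gene was -0.73, for Ank2, and the highest was 0.43, for Phip. For Dyrk1a, with one of the narrowest intervals, the limits were -0.22 and 0.20. Differences of -0.25 to -0.34, for Chd3, Myt1l and Ank2, did not pass without the block either.

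The small lower difference was not found in every culture. In culture 3 all 36 genes had a log2 ratio below 0, with a median of -0.27, and in culture 4 it was 27 of 36 with a median of -0.070. In culture 1 only 12 of 36 lay below 0, and the median was 0.080. The medians of all genes tested in cultures 1, 3 and 4 were -0.0023, -0.016 and -0.0022. A log2 ratio below 0 in all 3 cultures was found for 11 of the 36 genes, or 30.6%, against 20.9% of all genes tested. The share was 34.2% for tested genes that span more than 100 kb and 48.3% for the autism risk genes of synapse and channels.

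By role, the medians in cultures 1, 3 and 4 were 0.080, -0.27 and -0.070 for chromatin and transcription, 0.0090, -0.26 and -0.11 for signalling and adhesion, and 0.12, -0.29 and 0.014 for turnover. The order of the cultures was the same in the 3 roles. Each role median in culture 3 lay below every role median of cultures 1 and 4. Those of cultures 1 and 4 overlapped across the roles. With 1 library of each treatment in a culture, the difference between cultures was not tested.

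**Figure D3:**
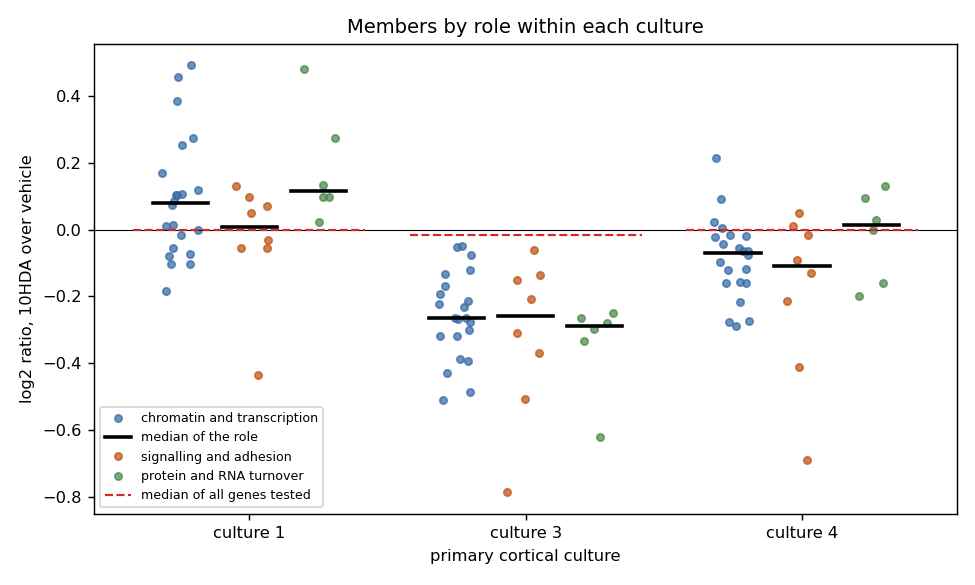
Log2 ratio of 10HDA over vehicle within each culture for the 36 tested genes, coloured by role, with black bars for the median of each role and dashed lines for the median of all genes tested. Culture 3 lies below 0 throughout, with role medians of -0.26 to -0.29, and culture 1 lies mostly above it, with role medians of 0.0090 to 0.12.

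Particular libraries stood at the low end of their group. Vehicle culture 1 had the lowest of the 3 vehicle values for 34 of the 36 genes, or 94.4%, against 36.5% of all genes tested. The same library was lowest for 70.8% of the 1622 tested genes that span more than 100 kb. Among the 10HDA libraries, culture 3 was lowest for 23 of the 36 genes, or 63.9%, against 37.2% of all genes. Without both libraries of culture 1 all 36 genes lay lower, with a median log2 difference of -0.13, and without culture 3 the count was 18 lower and the median 0.0009. Cultures 1 and 4, which remained when culture 3 was left out, had 12 and 27 of the 36 genes below 0. Which culture stood apart was not tested.

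The scaling also bore on the direction. When libraries were scaled by library size alone, 24 of the 36 genes lay lower with a median of -0.014, while the median of all genes was 0.064. Under the same scaling 27 of 49 genes called across the table were lower, or 55.1%, against 45 of 66, or 68.2%, with TMM. Reln passed under every scaling run, with log2 differences from -0.57 to -0.64.

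The genes of the list were long, with a median span of 122 kb against 25.5 kb for all genes tested. Genes over 100 kb as a whole had a median log2 difference of -0.10, and 1216 of the 1622 lay lower, whereas genes up to 100 kb had a median of 0.0073, with 4254 of 8860 lower. Within the list, the 22 genes over 100 kb had a median of -0.10 with 20 lower. The 14 shorter ones had a median of -0.085 with 13 lower. Spearman's rho between span and log2 difference was -0.43 over the 36 genes and -0.21 over all genes, a description across genes that share the same 6 libraries. The part of gene length in the shift was not tested.

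The autism risk genes of synapse and channels made up the nearest comparison. The count table held 32 such genes, of which 29 were tested, 27 lay lower, and their median log2 difference was -0.21. Kcnq3, a potassium channel subunit, passed and fell from 110 ± 21.4 to 59.0 ± 2.63 CPM (SD, n = 3; log2 difference -0.90, adjusted p = 0.0371 by edgeR). A log2 difference under -0.25 was found for 11 of the 29, or 37.9%, for 3 of the 36 genes outside synapse and channels, or 8.33%, and for 8.82% of all genes tested. The 36 genes lay close together just below 0, with quartiles of -0.12 and -0.052 against -0.12 and 0.11 for all genes. The lists were not tested against each other.

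**Figure D4:**
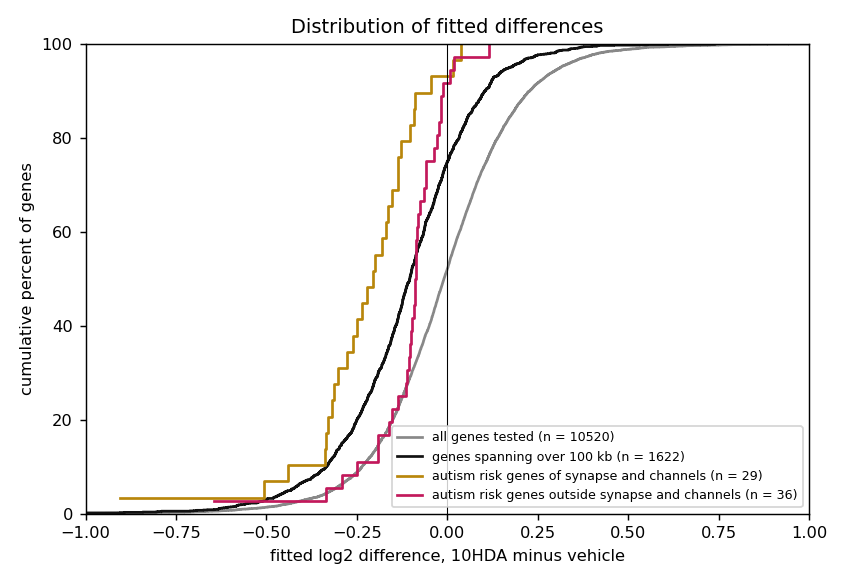
Cumulative percent of genes against the fitted log2 difference (10HDA minus vehicle) for the 36 genes outside synapse and channels, 29 autism risk genes of synapse and channels, 1622 genes over 100 kb and all 10520 genes tested. The curve of the 36 genes crosses 50 percent at -0.088 and follows that of all genes below -0.25, while the synapse and channel genes cross at -0.21.

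The partners of the chromatin genes gave few calls. Of 23 tested BAF subunits 15 lay lower with a median log2 difference of -0.067, and of 17 CHD and NuRD genes 11 lay lower with a median of -0.0097. Of 23 histone methyltransferase and COMPASS genes 19 lay lower with a median of -0.058. None of these 3 lists had a gene past the threshold in edgeR without the block, and the counts at an unadjusted p under 0.05 were 1, 0 and 1. The smallest p values belonged to Smarca2, the ATPase of BAF (-0.29, adjusted p = 0.45 by edgeR, 0.0718 with the block), to Chd5 (-0.25, adjusted p = 0.50 by edgeR), a neuronal relative of Chd3, and to Men1 (-0.24, adjusted p = 0.463 by edgeR), a COMPASS subunit.

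The Wnt and FMRP lists had no gene past the threshold in edgeR without the block, with 1 and 0 genes at an unadjusted p under 0.05. Of 16 Wnt and beta-catenin genes 12 lay lower with a median log2 difference of -0.084, and Apc, which marks beta-catenin for destruction, passed under the block (-0.30, adjusted p = 0.0944 by edgeR). Of 24 FMRP partners and ubiquitin ligases 16 lay lower with a median of -0.040. Cyfip2, which binds FMRP, passed under the block (-0.28, adjusted p = 0.0746 by edgeR).

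Markers of some other cells also differed between the treatments, while those of others overlapped. The 8 excitatory neuron markers summed to 1054 to 1312 CPM with vehicle and 1009 to 1190 CPM with 10HDA. Radial glia markers summed to 772 to 938.5 and 712.9 to 798.1 CPM, and dividing cell markers to 197.5 to 251.4 and 191.8 to 260.9 CPM. The endothelial cell, pericyte and fibroblast markers summed to 28.3 to 28.4 and 13.39 to 16.95 CPM, with Pdgfrb called lower. The 12 astrocyte markers summed to 1322 to 1616 CPM with vehicle and 1016 to 1242 CPM with 10HDA. Of the 11 tested, 9 lay lower, with 5 called, and 2 lay higher. The 6 markers of intermediate progenitors summed to 51.4 to 69.2 CPM with vehicle and 77.8 to 114 CPM with 10HDA. Only 3 of these 6 were tested, all 3 higher, with 0 called without the block and 2 with it. The 7 markers of the oligodendrocyte lineage summed to 329 to 409 and 248 to 354 CPM, with Cspg4 called lower at -0.92 (adjusted p = 0.0428 by edgeR). Pdgfra and Sox10 of that list passed as lower under the block, at -1.26 and -1.53 (adjusted p = 1.45e-07 and 1.16e-05 by edgeR). In the same list 4 of the 6 tested genes lay lower and 2 higher. Of the 12 neuron markers, none passed without the block (edgeR, 5 at an unadjusted p under 0.05) and 5 passed as lower with it, and their median log2 difference was -0.24. The part of cell composition in the shift of the autism risk genes was not tested.

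Without both libraries of culture 1, in fits of which those with the block and those of the partner lists and markers were chosen after seeing the data, the medians of the roles were -0.12 for chromatin and transcription, -0.15 for signalling and adhesion and -0.15 for turnover. The 22, 8 and 6 genes of these roles were then all lower. Chd3 had a log2 difference of -0.26 and Cntnap2 one of -0.24, and neither passed with the block (adjusted p = 0.136 and 0.28 by edgeR).

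Among the genes outside the list, Kcnq3 passed without culture 1 in both fits (-0.999, adjusted p = 0.0777 by edgeR without the block). Eif4ebp1 passed with the block only (0.70, adjusted p = 0.000315 by edgeR, and 0.426 without it), and so did Calb2 (-0.43, adjusted p = 0.0724 by edgeR). Rheb and Cyfip2 no longer passed with the block (adjusted p = 0.222 and 0.1001 by edgeR). Smarca2, Apc, Cntn5, Cntnap4, Cntnap5a and Ptprz1 still passed as lower with it.

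The partner list medians without culture 1 and without the block were -0.037 for BAF, 0.038 for CHD and NuRD, -0.076 for histone methyltransferases, 0.0065 for TSC, mTOR and Ras, -0.21 for reelin and contactins, -0.081 for Wnt and -0.045 for FMRP partners and ubiquitin ligases. The CHD and NuRD median and the TSC, mTOR and Ras median thus turned from just below 0 to just above it. The synapse and channel genes had a median of -0.23 with 29 of 29 lower. The marker medians were -0.22 for neurons, -0.11 for interneurons and -0.56 for astrocytes. They were 0.75 for intermediate progenitors (2 genes tested) and -0.0085 for the oligodendrocyte lineage (5 genes tested). With all cultures the oligodendrocyte median was -0.49, over 6 tested genes, so the 2 medians cover unlike sets. Without culture 1, Pdgfra, Cspg4 and Olig2 of that list passed with the block, counted in either direction.

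Compared per length, as CPM per kilobase of gene model, the list covered a wide range of levels with vehicle. Ctnnb1 was highest at 98.0 ± 15.8 (SD, n = 3), followed by Chd3 at 76.2 ± 9.28, Tcf4 at 54.3 ± 4.79, Myt1l at 43.5 ± 6.86 and Ank2 at 33.2 ± 8.41. The SD ranges of neighbours in this order overlapped, except for Chd3 and Tcf4. Reln stood at 7.02 ± 0.79 with vehicle and 4.49 with 10HDA, and Phip was the lowest of the tested genes at 2.40 ± 0.50.

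The 2 genes under the filter were Adnp and Cntn4. Adnp, a transcription factor of early brain development, had 13, 26 and 17 counts with vehicle and 15, 26 and 8 counts with 10HDA. In GENCODE M21, 82.1% of its exon bases are shared with Gm20716 on the same strand, which had 0 counts, and the part of the shared bases in its low count was not tested. Cntn4, a contactin of axons, had 59, 93 and 63 counts with vehicle and 63, 55 and 45 counts with 10HDA. Fitted without a filter, Adnp had a log2 difference of -0.12 (SE 0.34) and Cntn4 one of -0.30 (SE 0.22), and neither passed (adjusted p = 0.931 and 0.757 by edgeR).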

How the data were processed

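RNA from 3 cultures gave 6 libraries, made with a strand-specific kit and sequenced as single-end reads. Subjunc (Subread 1.4.4) was used by the authors for alignment to mm10, without trimming, and featureCounts with Gencode models for counting. The deposited values are these raw counts, neither normalized nor filtered, and no further sample columns were present. Symbols and spans came from GENCODE M21 (GRCm38), which matched 98.0% of identifiers.

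Counts were scaled by TMM, a gene was kept where 3 or more libraries reached 10 CPM, and 10HDA was compared with vehicle by edgeR 4.0.16 (glmQLFit and glmQLFTest, R 4.3.3), with Benjamini-Hochberg adjustment over all genes tested and a threshold of 0.1. The SE is the log2 difference divided by the square root of F. Ratios within a culture used a pseudocount of 0.5 counts. The labels give each culture 1 library of each treatment, so the culture number pairs libraries. Deviations from the group means correlated at 0.37, 0.23 and 0.62 within cultures 1, 3 and 4, and at -0.45 to 0.19 between them. An SD over 3 libraries measures the spread between cultures.

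The 38 genes, their roles, the partner lists and the markers were chosen with earlier results of these data known. Values in every library are given for genes with an unadjusted p under 0.05 or past the threshold under the block. Outside this rule, they are also given for Chd3 and Cntnap2, which met neither condition, and as counts for Adnp and Cntn4. From partner lists the genes past the threshold or those with the smallest p are named, with some others chosen after their values were seen. Alternatives were upper quartile scaling, DESeq2 size factors, library size alone, DESeq2 1.42.0, edgeR's likelihood ratio test, limma-voom (limma 3.58.1), other filters, a threshold of 0.05, the block, and each library or culture left out. The fit was tested on simulated data.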

Additional observations from a re-analysis of the deposited data

How the results depend on the processing

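The count of autism risk genes past the threshold was 1 under the other scalings, tests, filters and threshold and 3 with the replicate block of culture, and it ran from 0 to 3 when a library or a culture was left out. In the fits with 0 of them, 1 to 3 of these genes had an unadjusted p under 0.05 in edgeR. Over all genes it was 453 to 1380 of the 10234 to 10462 tested in those fits. With all libraries and no block it was 1 of the 36 genes, against 1059 of all 10520 tested. Without the block Reln missed the threshold also without culture 3 (adjusted p = 0.40 by edgeR) and culture 4 (adjusted p = 0.118 by edgeR), while with the block it passed in the 3 fits without a culture, which were added after seeing the data. The count over all genes was 170 with the DESeq2 test, 218 with the likelihood ratio test, 636 with no filter, 945 with the block, 43 at a threshold of 0.05 and 0 to 1089 over the fits without a library or culture; the cause was not tested. The count over the partner lists was 5 with no filter, 15 with the block, 1 at a threshold of 0.05, and 0 to 31 over those fits, all added after seeing the data. The 4 medians reported for the genes and their roles stayed within the SD of the culture medians, of 0.13 to 0.21, under the alternatives run. That mark is wide, because each SD was larger than the median it was set beside. A median of 0 would also lie within it, so the mark says nothing on the direction.

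The direction of small differences turned for 23 of the 36 genes, in 84 of 792 refitted values, and none of the 23 exceeded 0.14 in size as reported. Scaled by library size alone, log2 differences turned to Arid1b 0.038, Setd5 0.045, Ehmt1 0.0099, Asxl3 0.056, Dyrk1a 0.061, Ctnnb1 0.054, Cul3 0.012, Naa15 0.049 and Fmr1 0.016. With upper quartile scaling they turned to Asxl3 0.010, Dyrk1a 0.017, Ctnnb1 0.011 and Naa15 0.0050, and Dyrk1a to 0.00051 with the filter at 1 CPM. Leaving out a library or culture gave ranges of Phip -0.032 to 0.35, Med13l -0.14 to 0.18, Bcl11a -0.060 to 0.087, Setd5 -0.11 to 0.065, Nsd1 -0.18 to 0.064, Asxl3 -0.16 to 0.13, Dyrk1a -0.045 to 0.056, Ctnnb1 -0.10 to 0.11, Cul3 -0.15 to 0.081, Ube3a -0.30 to 0.25 and Naa15 -0.077 to 0.098. For the remaining genes whose direction turned, the ranges were Tnrc6b -0.25 to 0.038, Chd2 -0.23 to 0.015, Arid1b -0.14 to 0.084, Kmt2a -0.29 to 0.099, Kmt2c -0.25 to 0.058, Wac -0.17 to 0.044, Tsc2 -0.14 to 0.020, Fmr1 -0.16 to 0.051, Ash1l -0.26 to 0.021, Tbl1xr1 -0.24 to 0.0035 and Nf1 -0.18 to 0.059. Reln, Ank2, Myt1l, Chd3 and Cntnap2 kept their direction in each fit run.

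The libraries held 9144736 to 13367194 counts, and the biological coefficient of variation was 0.12 without the block and 0.085 with it.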
